A study of Mus musculus with 11 samples.

Results

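The genes described here encode the pore-forming subunits of voltage-gated potassium (Kv) channels. They were chosen by symbol: every mouse gene named Kcna, Kcnb, Kcnc, Kcnd, Kcnf, Kcng, Kcnh, Kcnq, Kcns or Kcnv followed by a number was a member, which gave 40 of the 53465 genes in the count files. RNA was sequenced from single male CRF1:GFP mice, in which green fluorescent protein is driven by the promoter of Crhr1, the gene of corticotropin releasing factor receptor 1. Cells of the medial prefrontal cortex were sorted for this fluorescence, and 160 pg of RNA from each mouse was amplified into a library. The 6 naïve mice had breathed air and received pyrazole, an inhibitor of alcohol dehydrogenase. The 5 withdrawn mice had gone through repeated cycles of ethanol vapor with injections of ethanol and pyrazole and were then kept without ethanol for several days. All mice were adults carrying the reporter, so that no group tests the reporter itself. The comparison asks how the Kv genes of these neurons differ between the 2 groups, in a population whose excitability the study had examined.

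The labels of 3 withdrawn mice (mice 3, 4 and 5) conflict. Their titles and treatment entries name ethanol, whereas a further entry reads control and the design text swaps the group sizes. The mice were grouped by title and treatment. The libraries held 7351567 to 22244869 counts on genes, and 30 to 39 of the 40 Kv genes had at least 1 count in each. Crhr1 was at 42.2 to 136 CPM (read counts scaled to a common library size), and the neuronal gene Snap25 was at 3170 to 7820 CPM. Slc17a7, the vesicular glutamate transporter of cortical pyramidal neurons, was at 738 to 1928 CPM in every mouse. Markers of other cell types differed among mice. The summed level of 6 fibroblast genes was 0.0677 to 65.4 CPM in naïve mice, 10.9 CPM in withdrawn mouse 2 and 231 to 1287 CPM in the other 4 withdrawn mice. Naïve mouse 5 had the fewest genes detected (15585, against 22551 to 31830 in the other mice). Withdrawn mouse 4 had the fewest counts on genes (7351567), the smallest share of reads on genes (41.982%) and the lowest Slc17a7 (738 CPM).

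Kv channels open when the membrane depolarizes and let potassium leave the cell, which repolarizes the neuron after an action potential and sets how readily it fires again. A channel is built from 4 subunits. Kv1 channels act at the axon and near threshold, Kv2 channels carry the slow delayed rectifier of the soma, Kv3 channels allow fast repolarization, and Kv4 channels carry the dendritic A-type current. Kv7 channels carry the M-current, and the Kv10 to Kv12 classes are the Eag, Erg and Elk channels. The Kv5, Kv6, Kv8 and Kv9 subunits are electrically silent: alone they form no working channel, and they join Kv2 subunits to alter their currents. Accessory proteins such as the Kv beta subunits, the KChIPs and the MinK family bind these subunits and change their gating or transport.

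All members share the selectivity filter, a stretch of the pore that coordinates potassium ions. The 27 coding bases around it are shown for 8 members, both silent and conducting. They are reference sequence and were not measured in these mice. Capitals mark the 5 filter codons.
Kcna1: atgaccACTGTGGGATACGGTgacatg
Kcnb2: atgaccACTGTGGGCTACGGTgacatt
Kcnc2: atgactACCTTAGGTTACGGGgatatg
Kcnd3: atgactACACTGGGATATGGAgacatg
Kcnf1: atgaccACAGTGGGCTATGGTgacatc
Kcnv1: atgactACAGTAGGATATGGGgacatt
Kcns2: atgaccACAGTTGGGTACGGAgatgtg
Kcnh3: ctcaccAGTGTGGGCTTCGGCaacgtg

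These stretches lie in coding exons of GRCm38, at chr6:126642222-126642248 on the minus strand for Kcna1, chr1:15710040-15710066 on the plus strand for Kcnb2, chr10:112456223-112456249 on the plus strand for Kcnc2, and chr12:17175055-17175081 on the minus strand for Kcnf1. For Kcnv1 the stretch lies at chr15:45109283-45109309 on the minus strand, for Kcns2 at chr15:34839606-34839632 on the plus strand and for Kcnh3 at chr15:99232923-99232949 on the plus strand. In Kcnd3 an intron interrupts it, so that its bases lie at both ends of chr3:105459908-105658623 on the plus strand. Among the 39 members whose stretch was read, the fourth filter codon was TAT in 21 and TAC in 10. The 8 Kv10 to Kv12 genes carried TTT in 5 and TTC in 3. The silent subunits therefore carried the same kind of codon there as Kv1 to Kv4 and Kv7, and only the Kv10 to Kv12 class differed.

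Levels were compared between genes as CPM divided by the kilobases of annotated exon, since longer transcripts give more reads. Of the 40 genes, 12 had a mean of at least 10 CPM per kilobase, 20 lay between 1 and 10, and 8 lay under 1. The 5 highest held 40.5% of the summed level of all members, and the 10 highest held 61.8%. The silent subunits Kcnf1 (Kv5) and Kcnv1 (Kv8) led the order, at 38.0 ± 7.36 and 37.6 ± 8.14 CPM per kilobase (SD, n = 11 mice). Kcnf1 ranked first in 5 mice and Kcnv1 in 6, and Kcnf1 was among the first 2 in every mouse, so that these neighbours in the order did not separate. Kcnh3, an Elk channel gene, followed at 19.6 ± 4.44, Kcnc4, a Kv3 gene, at 17.9 ± 6.16, and Kcng1, a silent Kv6 gene, at 17.0 ± 7.46 CPM per kilobase. These differed from each other by less than their SD. Kcna2 was at 13.5 ± 4.51, Kcna3 at 13.2 ± 6.14 and Kcnh1 at 13.1 ± 3.01 CPM per kilobase. Kcnd2 and Kcns1, both at 10.05 CPM per kilobase, closed the genes above 10. Below them the order ran from Kcna6 (9.88), Kcnq5, Kcna1, Kcnh5, Kcnh7 and Kcns2 (7.17) through Kcnc2, Kcnq3, Kcnd3, Kcnc1 and Kcnh4 (5.62) to Kcna4, Kcnb2 (4.68) and Kcnh2 (2.67), with Kcnd1, Kcng2, Kcnh6 and Kcns3 (1.01) last among those above 1 CPM per kilobase. Apart from the step from Kcnb2 to Kcnh2, the neighbours named in this stretch differed by less than their SD over mice. With the longest transcript of each gene in place of all its exons, Kcnv1 (39.3) and Kcnf1 (38.0) still led.

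**Figure D1:**
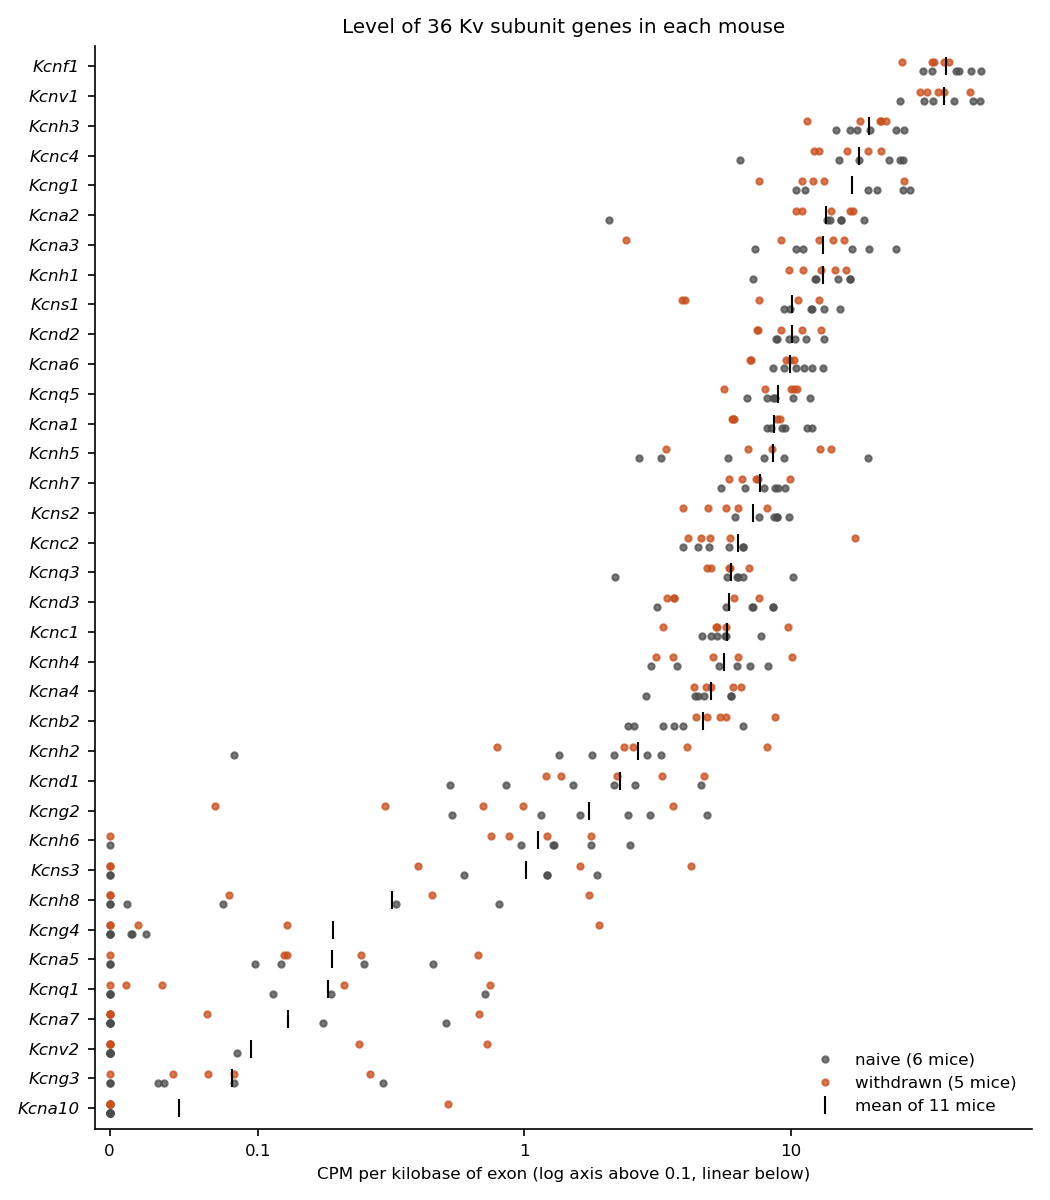
Level of 36 Kv genes in CPM per kilobase of exon (log axis above 0.1, linear below), with 1 point per mouse (gray, 6 naïve; orange, 5 withdrawn) and a tick at the mean of 11 mice. Kcnf1 and Kcnv1 lie above the other genes at 38.0 and 37.6, and the 8 genes at the bottom have means under 1.

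By class, the 10 silent subunit genes made up 36.7 ± 4.77% of the summed level per kilobase in naïve mice (SD, n = 6) and 33.3 ± 3.19% in withdrawn mice (SD, n = 5). The Kv10 to Kv12 genes held 17.2 ± 2.75% and 19.4 ± 1.78%, the Kv1 genes 16.3 ± 2.60% and 15.3 ± 1.06%, and the Kv3 genes 9.24 ± 1.65% and 10.1 ± 2.73%. Kv7 genes held 9.03 ± 1.03% and 9.53 ± 0.383%, Kv2 genes 5.84 ± 1.35% and 6.71 ± 0.966%, and Kv4 genes 5.71 ± 1.11% and 5.59 ± 0.361%. The groups overlapped in every class. Naïve mouse 5 had the highest silent share (44.7%) and withdrawn mouse 2 the lowest (28.0%), with the highest Kv3 share (14.6%) in withdrawn mouse 2. In RNA pooled from many cells, fewer cells of a type and less RNA per cell cannot be told apart.

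**Figure D2:**
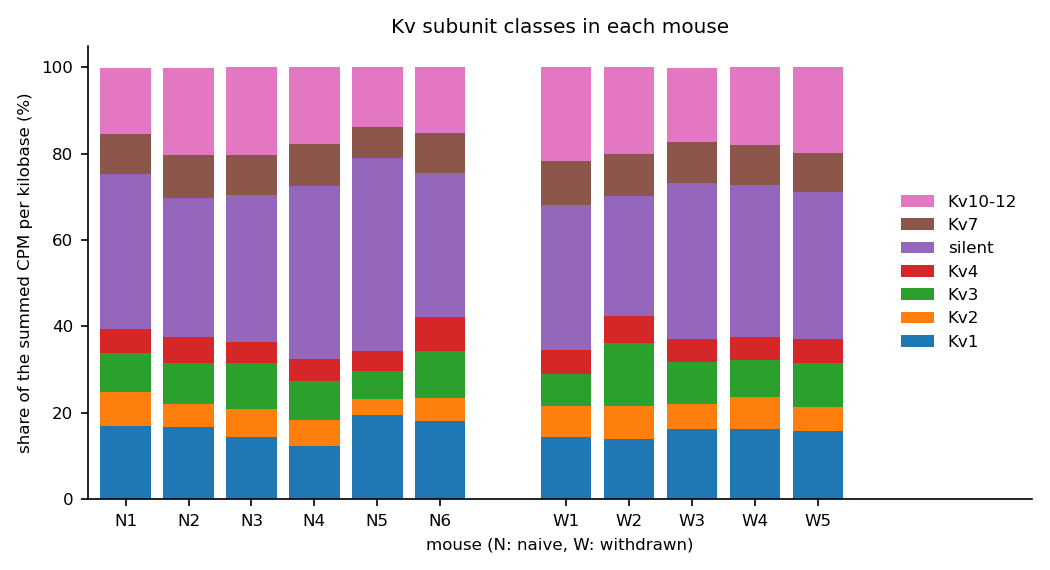
Share of the summed CPM per kilobase taken by each Kv class, in percent, for naïve mice N1 to N6 and withdrawn mice W1 to W5. The silent class is the largest in every mouse, at 28.0 to 44.7%.

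Between groups, no Kv gene passed the thresholds. Of the 40 members, 32 passed the filter on low counts. With edgeR's quasi-likelihood test, 0 members met both limits, which were 0.05 for the adjusted p and 0.6 for the size of the log2 fold change, where 0.00585% of all 17093 tested genes did. The smallest adjusted p of a member was 0.63. DESeq2 also called 0 members, with a smallest adjusted p of 0.329, where it called 1.66% of all genes with an adjusted p. At an unadjusted p under 0.05, edgeR found 1 member higher in withdrawn mice (background 5.00% of tested genes) and 1 lower (background 2.22%), and with 32 genes such counts are near the background. Of the 38 members to which DESeq2 gave a p, 1 was higher (background 4.99% of genes with a p) and 2 were lower (background 1.25%). No tested member had groups that did not overlap, where 0.948% of all tested genes did.

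Members leaned to lower fitted values: 20 of 32 were below 0 on the log2 scale, with a median of -0.08, beside 48.2% of all tested genes below 0 and a median of 0.02. With quality weights in limma voom 26 of the 32 were below 0, beside 54.6% of all genes, and with DESeq2 size factors 19 were, beside 45.4%. For 17 of the 32 the 95% interval of the fold change lay within 2-fold in either direction, as it did for 38.7% of all tested genes. These 17 included the abundant Kcnf1, Kcnv1, Kcnh3, Kcnc4, Kcna2 and Kcnh1. For the other 15 a change of 2-fold in at least 1 direction lay inside the interval. Of the other potassium channel families, 10 of 14 Kcnk genes (two-pore domain leak channels) were tested, with 6 above and 4 below 0 and a median of 0.08. For the Kcnj inward rectifiers, 8 of 15 were tested, with 2 above and 6 below 0 and a median of -0.26. Neither family had a gene past the thresholds in edgeR, and DESeq2 called 1 Kcnk gene.

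**Figure D3:**
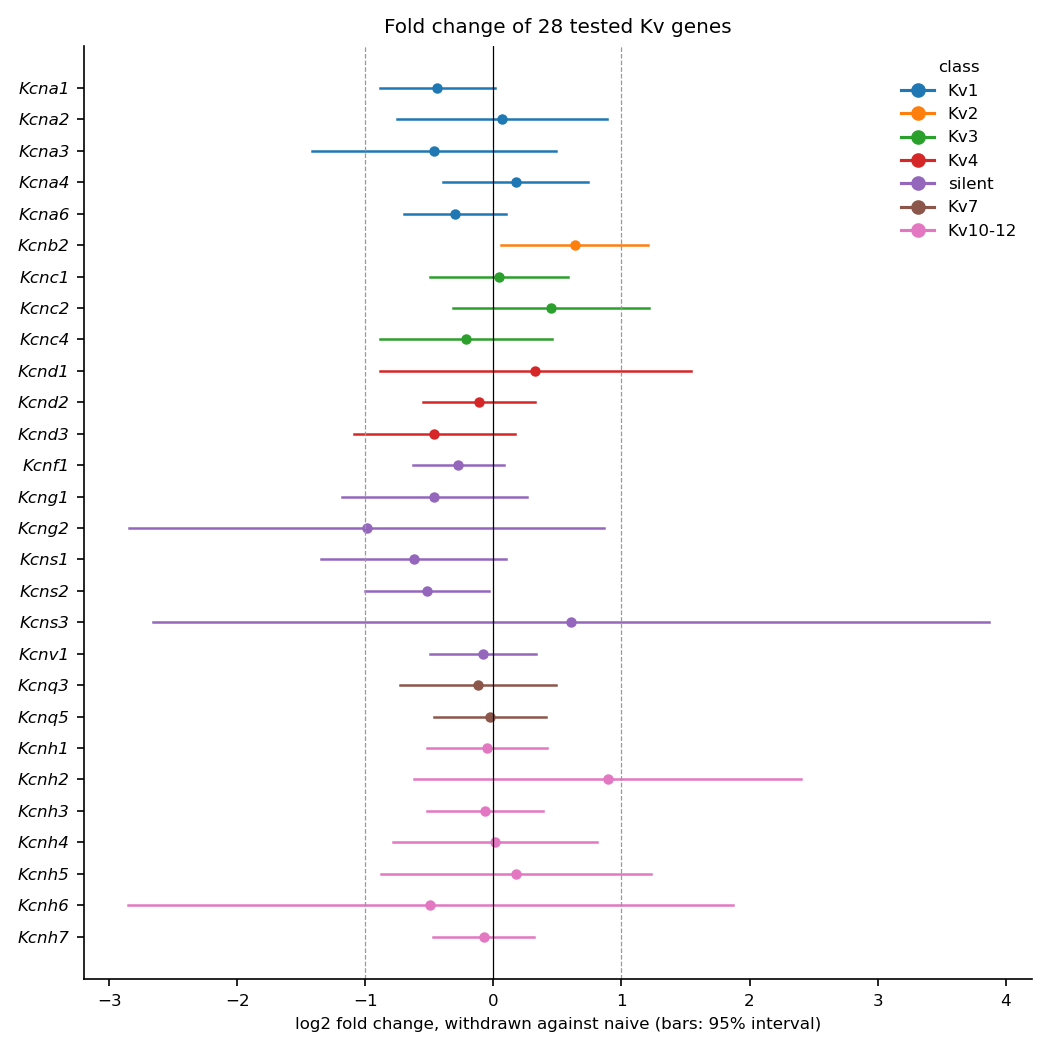
Log2 fold change of withdrawn against naïve mice (points) with the 95% interval (bars) for 28 tested Kv genes, colored by class. Dashed lines mark 2-fold in each direction. Only the intervals of Kcnb2 (0.06 to 1.21) and Kcns2 (-1.005 to -0.036) do not include 0.

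Among the Kv2 genes, Kcnb2 had the smallest unadjusted p of all members in edgeR. It encodes a delayed rectifier subunit and lies at chr1:15287254-15723750. Kcnb2 was at 37.0 CPM in the lowest naïve mouse, 52.6 CPM at the median and 99.8 CPM in the highest, and at 132, 73.2, 66.4, 86.1 and 82.3 CPM in withdrawn mice 1 to 5. All withdrawn mice lay above 5 of the 6 naïve mice, and naïve mouse 3 overlapped them. The fitted log2 fold change was 0.63 (SE 0.267, adjusted p = 0.63 in edgeR), and a two-sided exact permutation test gave an unadjusted p = 0.0476. Without withdrawn mouse 1, which was the highest, it was 0.43 (adjusted p = 0.985 in edgeR), and Kcnb2 no longer had an unadjusted p under 0.05. Nor did it without naïve mouse 2, 5 or 6.

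Silent subunits gave 6 of 7 tested genes with a fitted value below 0, with a median of -0.46, and 3 of their 10 genes were not tested. Kcns2, a Kv9 gene at chr15:34837355-34843407, was at 34.4, 48.8 and 54.8 CPM at the lowest, median and highest of the naïve mice. In withdrawn mice 1 to 5 Kcns2 was at 31.8, 22.1, 45.4, 27.3 and 35.2 CPM. Withdrawn mice 1, 2 and 4 lay below every naïve mouse, and withdrawn mice 3 and 5 lay within the naïve range. The fitted log2 fold change was -0.52 (SE 0.226, adjusted p = 0.648 in edgeR), and a two-sided exact permutation test gave an unadjusted p = 0.0216. Without withdrawn mouse 2 the value was -0.42 (adjusted p = 0.794 in edgeR), and Kcns2 no longer had an unadjusted p under 0.05. Nor did it without naïve mouse 2, 3, 5 or 6 or withdrawn mouse 1 or 4. Without the 3 mice with conflicting labels it was -0.83 (adjusted p = 0.789 in edgeR).

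The other Kv9 genes differed in level. Kcns1, at chr2:164163619-164171113, was at 25.5, 32.4 and 41.5 CPM at the lowest, median and highest of the naïve mice and at 34.4, 10.9, 28.7, 10.6 and 20.5 CPM in withdrawn mice 1 to 5. Withdrawn mice 2, 4 and 5 lay below all naïve mice, while withdrawn mouse 1 exceeded the naïve median. The log2 fold change of Kcns1 was -0.62 (SE 0.335, adjusted p = 0.769 in edgeR). Kcns3 was at 0 to 5.91 CPM in naïve mice and reached 13.3 CPM in withdrawn mouse 2, with 0 counts in 2 withdrawn mice.

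Kcnf1, at chr12:17172100-17176888, was at 149, 201 and 246 CPM at the lowest, median and highest of the naïve mice and at 162, 164, 179, 124 and 188 CPM in withdrawn mice. Only withdrawn mouse 4 lay below the naïve range. Its log2 fold change was -0.27 (SE 0.166, interval -0.63 to 0.08, adjusted p = 0.805 in edgeR). Kcnv1, at chr15:45106284-45114920, was at 117, 172 and 234 CPM at the lowest, median and highest of the naïve mice and at 171, 139, 148, 163 and 214 CPM in withdrawn mice. All withdrawn mice lay within the naïve range, and the fitted value was -0.08 on the log2 scale with an interval of -0.50 to 0.34. The intervals of both leading genes lay within 2-fold.

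Kcng1, at chr2:168260117-168281736, was at 46.9, 91.4 and 126 CPM at the lowest, median and highest of the naïve mice and at 60.1, 34.1, 119, 54.5 and 49.3 CPM in withdrawn mice 1 to 5. Withdrawn mouse 3 was near the top of the naïve range and withdrawn mouse 2 was below it. Kcng1 had a log2 fold change of -0.46 (SE 0.336, adjusted p = 0.852 in edgeR). Without withdrawn mouse 3 it was -0.85 (adjusted p = 0.593 in edgeR), without the 3 mice with conflicting labels -0.94 and without naïve mouse 5 and withdrawn mouse 2 together -0.16. Kcng2, a silent gene of low level with 3 to 214 counts per mouse, had the lowest fitted value of all members, -0.99, with an interval of -2.85 to 0.87.

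Of the Kv1 genes, 5 of 8 were tested and 3 of these had fitted values below 0. Kcna1, an axonal low-threshold channel gene at chr6:126640397-126646384, was at 38.8, 44.6 and 57.1 CPM at the lowest, median and highest of the naïve mice. Withdrawn mice 1 to 5 had 42.2, 43.4, 29.2, 28.9 and 28.6 CPM of Kcna1. Withdrawn mice 3, 4 and 5, the mice with conflicting labels, lay below every naïve mouse, and withdrawn mice 1 and 2 lay within the naïve range. The log2 fold change was -0.44 (SE 0.21, adjusted p = 0.707 in edgeR), and a two-sided exact permutation test gave an unadjusted p = 0.0433. Without those 3 mice it was -0.18 (adjusted p = 0.933 in edgeR).

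Kcna6 was at 50.8, 64.2 and 78.2 CPM at the lowest, median and highest of the naïve mice and at 41.7, 61.0, 59.0, 42.2 and 57.1 CPM in withdrawn mice, of which mice 1 and 4 lay below the naïve range. Kcna6 had a log2 fold change of -0.30 (SE 0.185, adjusted p = 0.816 in edgeR). It shares 2355 of its 5945 exonic bases with Gm26673 on the opposite strand, and how the counting treated strand is not given in the sources used here, so that reads of both genes cannot be told apart. Kcna2, which joins Kcna1 in axonal channels, was at 24.7 CPM in naïve mouse 5 and at 162 to 223 CPM in the other 5 naïve mice, beside 124 to 203 CPM in withdrawn mice. Its log2 fold change was 0.07, with an interval of -0.75 to 0.89. Kcna3 was at 13.9 to 47.2 CPM in naïve mice, at 4.59 CPM in withdrawn mouse 2 and at 17.5 to 29.9 CPM in the other withdrawn mice. Kcna4 was at 13.8 to 28.9 CPM in naïve and 20.9 to 31.3 CPM in withdrawn mice.

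**Figure D4:**
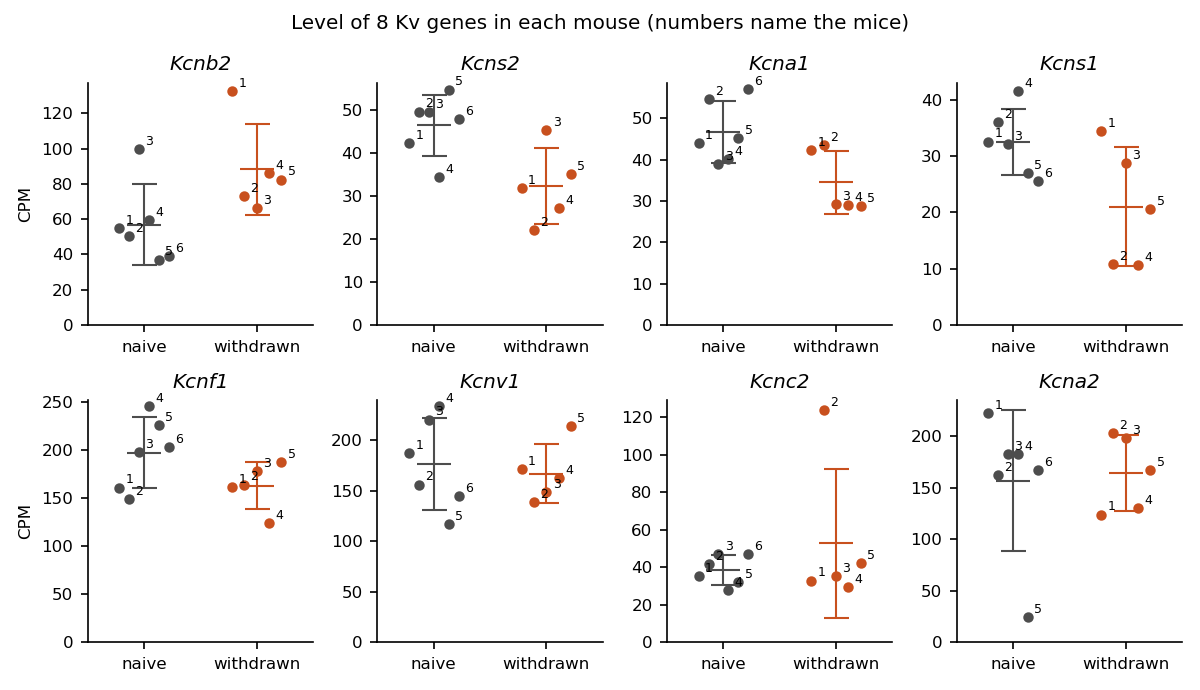
CPM of 8 Kv genes in each mouse (points numbered by mouse; gray, naïve; orange, withdrawn), with the mean and SD of each group (bars). Kcnb2 and Kcns2 overlap between groups through naïve mouse 3 and withdrawn mice 3 and 5, Kcnc2 has 1 high value at 123 in withdrawn mouse 2, and Kcna2 has 1 low value at 24.7 in naïve mouse 5.

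The 4 Kv3 genes were all tested, with 3 fitted values above 0. Kcnc2, a gene of fast repolarizing channels known from interneurons, was at 28.0, 38.4 and 47.2 CPM at the lowest, median and highest of the naïve mice. It was at 123 CPM in withdrawn mouse 2 and at 32.9, 35.5, 29.4 and 42.1 CPM in withdrawn mice 1, 3, 4 and 5. Withdrawn mouse 2 stood alone above both groups, and the other 4 withdrawn mice lay within the naïve range. The log2 fold change was 0.45 (SE 0.356, adjusted p = 0.866 in edgeR), -0.15 without withdrawn mouse 2 and 0.95 without the 3 mice with conflicting labels.

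The same mouse was also the highest for the Kv3 gene Kcnc1 (91.7 CPM, against 31.2 to 72.8 CPM in all others). Interneuron markers moved with these values in part. Withdrawn mouse 2 had the highest Gad2 (130 CPM, against 7.52 to 62.9 CPM), Vip (259 CPM, against 9.44 to 149 CPM), Dlx1 (59.5 CPM) and Dlx6os1 (83.2 CPM). It was not the highest for Gad1 (277 CPM, against 325 CPM in withdrawn mouse 1), and Sst and Npy were at 0 in it. Nor was it the highest for Lhx6 (3.47 CPM, against up to 13.45 CPM) or Slc32a1 (1.90 CPM, against up to 3.82 CPM). Pvalb, the marker of fast-spiking basket cells, was at 0 to 2.83 CPM in all mice. The summed level of 10 interneuron genes ranged from 82.7 to 1119 CPM in naïve and from 36.6 to 815 CPM in withdrawn mice, with 815 CPM in withdrawn mouse 2. This sum was 1119 and 863 CPM in naïve mice 1 and 2, where Kcnc2 was at 35.1 and 41.7 CPM. The part of interneurons in the Kv3 values was not tested.

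Kcnc4, the most abundant Kv3 gene per kilobase, was at 23.6, 75.7 and 96.5 CPM at the lowest, median and highest of the naïve mice and at 46.8, 59.5, 71.4, 44.5 and 79.8 CPM in withdrawn mice. All withdrawn mice lay within the naïve range, whose lowest value was naïve mouse 5. Its log2 fold change was -0.21 (SE 0.311, adjusted p = 0.94 in edgeR). It moved over 1.5 times when any of 6 mice was left out, from -0.10 without naïve mouse 3 to -0.38 without naïve mouse 5, with -0.11 without naïve mouse 4, -0.14, -0.11 and -0.35 without withdrawn mice 1, 4 and 5, and -0.46 without the mice with conflicting labels.

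Of the Kv4 genes, Kcnd3 was at 30.1, 68.7 and 82.0 CPM at the lowest, median and highest of the naïve mice and at 32.8, 34.8, 58.5, 34.8 and 72.5 CPM in withdrawn mice 1 to 5. Withdrawn mice 1, 2 and 4 had lower values than all naïve mice except mouse 5. The log2 fold change of Kcnd3 was -0.46 (SE 0.293, adjusted p = 0.816 in edgeR), and -0.98 without the mice with conflicting labels (adjusted p = 0.789 in edgeR). Kcnd2, the main dendritic A-type gene, was at 45.4 to 68.5 CPM in naïve and 38.3 to 66.9 CPM in withdrawn mice, giving a fitted value of -0.11 on the log2 scale and an interval of -0.55 to 0.33. Kcnd1 was low, at 2.78 to 24.2 CPM in naïve and 6.39 to 25.0 CPM in withdrawn mice.

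Among the Kv7 genes, Kcnq5 was at 52.5 to 90.6 CPM in naïve and 42.9 to 81.0 CPM in withdrawn mice, with a fitted value of -0.03 on the log2 scale and an interval of -0.47 to 0.41. Kcnq3 was at 32.0 CPM in naïve mouse 5, 84.6 to 149 CPM in the other naïve mice and 71.1 to 102 CPM in withdrawn mice, with a fitted value of -0.12 and an interval of -0.73 to 0.49. The intervals of both genes lay within 2-fold in both directions. Kcnq1 was not tested.

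In the Kv10 to Kv12 classes, Kcnh3 was at 84.6, 108 and 152 CPM at the lowest, median and highest of the naïve mice and at 125, 104, 124, 65.9 and 131 CPM in withdrawn mice, of which only mouse 4 lay below the naïve range. Its log2 fold change was -0.07, with an interval of -0.52 to 0.39. The Erg gene Kcnh2 was at 0.406, 9.59 and 15.8 CPM at the lowest, median and highest of the naïve mice and at 19.7, 39.3, 12.4, 11.4 and 3.82 CPM in withdrawn mice 1 to 5. Withdrawn mice 1 and 2 lay above all naïve mice, and withdrawn mouse 5 was lower than every naïve mouse but mouse 5. The log2 fold change was 0.89 (SE 0.704, adjusted p = 0.865 in edgeR), 0.33 without withdrawn mouse 2 and 1.60 without the 3 mice with conflicting labels. The other abundant genes were Kcnh1, at 52.8 to 122 CPM in naïve and 71.8 to 118 CPM in withdrawn mice, and Kcnh7, at 82.9 to 144 CPM and 89.3 to 151 CPM. Kcnh5 ranged over 10.9 to 78.7 CPM in naïve and 13.8 to 57.3 CPM in withdrawn mice, with an interval of -0.87 to 1.23. Kcnh4, an Elk gene, was at 11.8 to 32.4 CPM and 12.3 to 39.7 CPM, with a fitted value of 0.01 on the log2 scale. Kcnh6 had 0 counts in naïve mouse 5 and withdrawn mouse 2.

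The 8 members that were not tested were Kcna5, Kcna7, Kcna10, Kcng3, Kcng4, Kcnv2, Kcnq1 and Kcnh8, with at most 71 counts and 7.95 CPM in any mouse. Kcna10 had counts in 1 mouse. Kcng4 reached 7.28 CPM, Kcnv2 3.69 CPM and Kcnh8 7.95 CPM in withdrawn mouse 2, and these were their highest values. Naïve mouse 5 was the lowest mouse for 14 of the 32 tested members and the highest for 5, and withdrawn mouse 2 was the lowest for 3 and the highest for 8. Withdrawn mouse 4 was the lowest for 6 and the highest for 0.

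Of 29 auxiliary genes, 25 were tested, of which 6 had fitted values above and 19 below 0, with a median of -0.09. With edgeR 0 passed the thresholds (smallest adjusted p 0.256), as with DESeq2, and at an unadjusted p under 0.05 there was 1 higher and 1 lower in either tool, beside backgrounds of 5.00% and 2.22% in edgeR and 4.99% and 1.25% in DESeq2. All 4 KChIP genes, calcium sensors that bind Kv4 channels, had values below 0, from -0.82 to -0.06, and only 1 had an unadjusted p under 0.05 in edgeR. Kcnip4 was at 186, 208 and 237 CPM at the lowest, median and highest of the naïve mice and at 165, 113, 173, 127 and 204 CPM in withdrawn mice 1 to 5. Withdrawn mice 1 to 4 lay below every naïve mouse and withdrawn mouse 5 lay among them. The log2 fold change of Kcnip4 was -0.40 (SE 0.164, adjusted p = 0.597 in edgeR), and -0.31 without withdrawn mouse 2, when its unadjusted p was no longer under 0.05. It was -0.61 without the mice with conflicting labels.

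Kcnip3 (183 ± 40.4 CPM in naïve and 176 ± 38.7 CPM in withdrawn mice; SD, n = 6 and 5) and Kcnip2 (85.7 ± 19.1 and 79.3 ± 25.7 CPM) differed by less than their SD. So did the other Kv4 partners, Dpp10 (182 ± 23.2 and 171 ± 31.9 CPM) and Dpp6 (85.7 ± 19.9 and 79.8 ± 25.4 CPM), and the beta subunits Kcnab1 (145 ± 33.0 and 138 ± 44.6 CPM) and Kcnab2 (108 ± 14.8 and 104 ± 25.0 CPM). All 9 genes of the Kv1 complex and the axon initial segment were tested, with fitted values from -0.30 to 0.05, and 8 of their intervals lay within 2-fold.

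Kcne4, a MinK family gene whose protein inhibits several Kv channels, had the largest auxiliary difference. It had 0 counts in 5 naïve mice and 4.57 CPM in naïve mouse 6, and 117, 0, 27.6, 90.9 and 25.0 CPM in withdrawn mice 1 to 5. Withdrawn mice 1, 3, 4 and 5 lay above all naïve mice, and withdrawn mouse 2 was at 0. The fitted log2 fold change was 6.02 (SE 1.61, adjusted p = 0.256 in edgeR), a size that depends on the fit because most naïve mice were at 0. Without withdrawn mouse 2 the adjusted p in edgeR was 0.0441, in a fit that called 193 of 18170 tested genes. That fit keeps only withdrawn mice with high Kcne4, so it cannot test the difference over the whole group. Of these, withdrawn mice 3, 4 and 5 are the mice with conflicting labels. In the reported fit Kcne4 passed the filter on low counts only through naïve mouse 6, since without that mouse it was not tested.

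Fibroblast markers moved with Kcne4 among withdrawn mice, but not among naïve mice. Naïve mice 3 and 4, with 0 counts of Kcne4, had fibroblast sums of 65.4 and 51.8 CPM, against 21.9 CPM in naïve mouse 6. Col1a2 was at 690, 294, 378 and 97.5 CPM in withdrawn mice 1, 3, 4 and 5, at 1.90 CPM in withdrawn mouse 2 and at 0 to 38.4 CPM in naïve mice. Ogn, another fibroblast gene, was at 202, 133, 217 and 49.1 CPM in the same 4 withdrawn mice, at 0 in withdrawn mouse 2 and at 0 to 8.06 CPM in naïve mice. Of the 6 genes of that list, 5 were tested, all with fitted values above 0 and 4 at an unadjusted p under 0.05. The untested gene, Lum, did not follow the others, at 0.0677 to 6.85 CPM in naïve and 0 to 2.58 CPM in withdrawn mice. On the astrocyte list, Gja1 was at 129 to 309 CPM in these 4 mice and at 0 to 31.9 CPM in all others, whereas the other 3 tested genes (Aqp4, Slc1a3 and Aldh1l1) had fitted values below 0 and Gfap was at 0 to 4.55 CPM in withdrawn mice. The part of fibroblasts in the Kcne4 values was not tested.

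**Figure D5:**
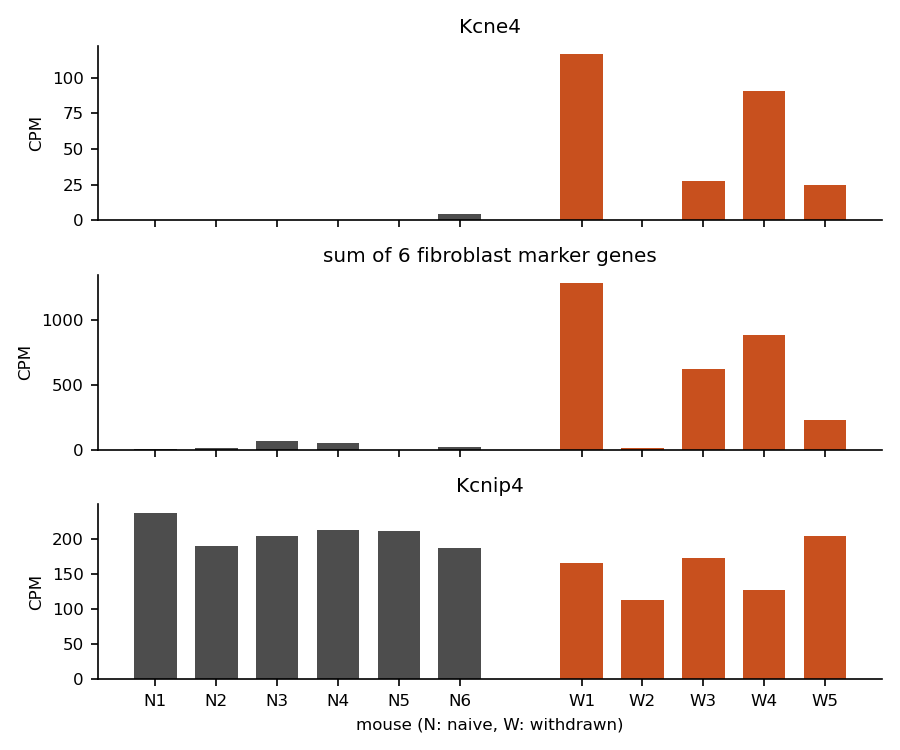
CPM of Kcne4, of 6 summed fibroblast marker genes and of Kcnip4 in naïve mice N1 to N6 (gray) and withdrawn mice W1 to W5 (orange). Kcne4 and the fibroblast sum are high in W1, W3, W4 and W5 and at 0 and 10.9 CPM in W2, while Kcnip4 is at 113 to 204 CPM in withdrawn and 186 to 237 CPM in naïve mice.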

How the data were processed

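The authors trimmed, mapped and counted single-end reads per Ensembl gene of GRCm38 (Ensembl release 91), and the deposited values are raw counts per gene for each of 11 mice as counted, neither normalized nor pooled. How strand was treated in counting is not given in the sources used here, and of the named genes Kcna6, Kcnip4, Kcnd3 and Kcnh3 share exonic bases with a gene on the opposite strand (2355, 267, 165 and 1 bases). Other genes described above do so too, among them Kcnh7, Kcng2, Kcnq5 and Kcnab1 (696, 272, 237 and 201 bases). Symbols, exons and coordinates were taken from GENCODE M21 on the same assembly, in which 53360 of 53465 identifiers had a symbol. All 40 members, 29 auxiliary genes and 50 marker list entries were matched. The members and lists were chosen with earlier results of these data known.

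The groups were contrasted with the quasi-likelihood test of edgeR 4.0.16 (R 4.3.3) on TMM-scaled counts. Low genes were removed by filterByExpr (minimum count 10, minimum total 15), and p-values were adjusted over all tested genes by the Benjamini-Hochberg method. Calls required an adjusted p not above 0.05 and a log2 fold change larger than 0.6 in size. Standard errors were the size of the fold change divided by the square root of F. The 95% intervals used the total degrees of freedom of each gene, residual plus prior. CPM used TMM library sizes, and log2 CPM a prior count of 2. Exact permutation tests used all 462 splits of the mice. Their p-values were not adjusted over members and are printed only for Kcnb2, Kcns2 and Kcna1, the members under 0.05. For the other named members the permutation p ran from 0.0649 (Kcns1) to 0.7835 (Kcnv1). Members were named partly by their edgeR p in the same mice, so these values are no separate support. Rows without a gene were left out, with 41.982 to 81.106% of reads on genes. The 3-count floor was 0.135 to 0.408 CPM, which covers counting error only, since the cDNA was amplified, while the 95% intervals rest on the spread between mice. Each mouse was 1 library, and no duplicate libraries were found. The scripts were tested on simulated data.

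Genes were named by rule: the 10 members with the smallest p, the 5 with the highest CPM per kilobase, any called or with groups apart, and auxiliary genes at an unadjusted p under 0.05. Values of other members are descriptions. Alternatives were DESeq2 1.42.0, other size factors, other filters, limma 3.58.1 voom with quality weights, a replicate block, genes detected as a covariate, each mouse left out and the 3 mice with conflicting labels left out. A fit without naïve mouse 5 and withdrawn mouse 2 was chosen after seeing the data. Replicate numbers come from the labels. Same-numbered mice are different animals, and their deviations correlated at -0.1998 to 0.1817. Values of some members and some sequences are not reported here.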

Additional observations from a re-analysis of the deposited data

Results flagged for a closer look

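In 60 sets of values (a gene in 1 group, log2 CPM), 10 single mice lay apart from the rest of their group by Dixon's gap test at the 95% level, where chance gives about 3. Of these, 5 came from naïve mouse 5, the library with the fewest genes detected: Kcna2 at 4.64 (others at least 7.34), Kcnq3 at 5.01 (others at least 6.40), Kcnh1 at 5.73 (others at least 6.50), Kcnh2 at -0.86 (others at least 2.74) and Kcnh6 at -2.80 (0 counts). From withdrawn mouse 2 came Kcna3 at 2.24 (others at least 4.14), Kcnc2 at 6.95 (others at most 5.40), Kcnh6 at -2.80 (0 counts) and the auxiliary gene Kcne4 at -2.80 (0 counts; others at least 4.66). The last was Kcne4 in naïve mouse 6, at 2.24. The other naïve mice were tied at 0 counts, so that any counts in this mouse would have been flagged. The figure of about 3 holds for independent sets, and sets that share a library are not independent.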

How the results depend on the processing

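No Kv gene passed the thresholds in any of the 21 alternative fits across all genes. The count over all genes was 1 as reported, 362 with DESeq2, 30 with at least 10 counts in every mouse, 26 with genes detected as a covariate, 137 without a filter on low counts, 0 without the 3 mice with conflicting labels, 310 without naïve mouse 5 and withdrawn mouse 2, and 0 to 193 with 1 mouse left out, 193 being without withdrawn mouse 2. Members at an unadjusted p under 0.05 and higher in withdrawn mice numbered 1 as reported, 3 without a filter, 3 without the mice with conflicting labels, and 0 to 1 with 1 mouse left out (0 without naïve mouse 2, 5 or 6 or withdrawn mouse 1). Those lower numbered 1 as reported, 2 with DESeq2, 2 with quality weights, 2 without the conflicting mice, 2 without naïve mouse 5 and withdrawn mouse 2, 0 with at least 10 counts in every mouse, 0 without a filter, and 0 to 3 with 1 mouse left out (0 without naïve mouse 2 or 6 or withdrawn mouse 4). With 1 mouse left out, the lower genes included Kcns2 only without naïve mouse 1 or 4 or withdrawn mouse 3 or 5. Without naïve mouse 3 or withdrawn mouse 2 the lower gene was Kcna1, and without naïve mouse 5 it was Kcnd3. The auxiliary count of 0 became 1 (Kcne4) without a filter and without naïve mouse 5 and withdrawn mouse 2, and was 0 to 1 with 1 mouse left out. The median log2 fold change of the Kv genes was -0.19 to -0.02 with 1 mouse left out. Kcnc2 turned to -0.18 without naïve mouse 5 and withdrawn mouse 2 and was -0.15 to 0.61 with 1 mouse left out, Kcnh2 turned to -0.056 with quality weights, and Kcnv1 (-0.197 to 0.018) and Kcnh3 (-0.145 to 0.074) changed sign with 1 mouse left out. The cause of these shifts in fold change was not tested. The level of Kcnh3 was 30.5 CPM per kilobase with the longest transcript (3698 bases) in place of all exons (5756 bases), a change of the divisor only. With a replicate block, which the numbers do not support as a pairing since 1 of 5 withdrawn mice correlated best with its own number, 0 genes were called, and 0 members were higher and 0 lower at an unadjusted p under 0.05.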
